A study of Mus musculus with 12 samples.

Results

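The 35 genes described here make, regulate or move cholesterol and fatty acids, and were measured by RNA-seq among 14851 genes in 562 cells lacking the autophagy genes Fip200, Atg5 or Atg7. They were chosen by name: 8 genes of the mevalonate pathway, 12 of the sterol pathway that follows it, 5 regulators of the sterol-sensing transcription factors, 3 genes of sterol transport and 7 genes of fatty acid synthesis and desaturation. The 562 line is a spontaneously immortalized line from a cutaneous vascular tumor of a mouse in which tamoxifen-activated Scl-Cre had deleted Tsc1 in endothelial cells. By this origin all 4 groups carry the Tsc1 loss and the mTORC1 hyperactivation it brings, the control cells labelled wildtype included, and the labels give the strain as C57BL/6 and the tissue as lymphatic endothelial cells.

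There were 3 libraries each of control 562 cells and of cells with KO of Fip200, Atg5 or Atg7. The KO cells were made with lentiviral Cas9 and an sgRNA under puromycin selection, and an sgRNA against EGFP served as control in the methods. The study describes 2 Fip200 KO clones of 562 cells in other assays. The labels do not tell which clone a library came from or whether replicates were separate cultures. P-values therefore measure only the spread between these libraries. Reads recovered from the files ranged from 17264989 to 23627944 per library. Values are RPKM, reads divided by gene length and library size, and values in a row are replicates 1, 2 and 3. All 35 members had reads in every library, from 22 for Tm7sf2 to 31544 for Scd2 with a median of 1091.5, and all 35 could be tested in each comparison.

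Cells build cholesterol from acetyl-CoA. The mevalonate pathway makes isoprenoid units, farnesyl diphosphate joins into squalene, and squalene is closed to lanosterol and trimmed to cholesterol. The transcription factor SREBP2, encoded by Srebf2, turns on nearly every step, while SREBP1, encoded by Srebf1, acts more on fatty acid synthesis. When sterols are scarce, Scap carries the SREBP precursors from the endoplasmic reticulum to the Golgi for cleavage, and when sterols abound Insig proteins hold Scap back. Oxysterols act in the opposite sense through the LXR receptors, which turn on sterol export by Abca1 and the ubiquitin ligase Mylip, also called Idol, which removes lipoprotein receptors. mTORC1 is known to promote SREBP activity.

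The genes cut in each KO were examined first. Rb1cc1, the gene of Fip200, was at 6.43, 8.27 and 7.73 RPKM in control and 5.18, 6.84 and 2.06 RPKM in Fip200 KO cells, so replicates 1 and 3 lay below the control range, replicate 3 the furthest. Atg7 was at 18.4, 25.0 and 19.8 RPKM in control and 5.40, 2.64 and 8.34 RPKM in the Atg7 KO cells, without overlap. It was at 9.99, 11.9 and 9.94 RPKM in Atg5 KO cells, also below every control library. In Fip200 KO cells it was at 38.3, 12.4 and 8.23 RPKM, with replicate 1 above control and the others below it. Atg5 was at 14.2, 11.1 and 10.6 RPKM in control and 8.53, 15.5 and 12.6 RPKM in Atg5 KO cells. The Atg5 ranges overlapped, so the RNA gave no check of the Atg5 KO labels. A Cas9 cut can disable a gene without lowering its RNA. Tsc1 RNA was present in every library, at 5.55, 7.01 and 5.23 RPKM in control, 6.44, 5.69 and 2.59 in the Fip200 KO, 3.70, 3.61 and 4.75 in the Atg5 KO and 3.91, 3.39 and 4.76 RPKM in the Atg7 KO libraries. The Atg5 KO and Atg7 KO libraries and Fip200 KO replicate 3 were below all control libraries, and a value over the whole gene does not show whether part of it was deleted. The part of Tsc1 RNA in the results was not tested.

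Some libraries stood apart. Library names carry the prefixes FY, JG and Yang, whose meaning the labels do not give. Control libraries were FY, JG and JG, the Fip200 KO libraries were all FY, Atg5 KO libraries were JG, JG and Yang, and the Atg7 KO libraries were all Yang. Atg7 KO and control shared no prefix, so within their 6 libraries prefix and genotype cannot be told apart. Among marker genes, the 7 endothelial genes summed to between 1010 and 2620 RPKM in every library, with Pecam1 between 265 and 539 RPKM. Among them Cdh5 and Kdr rose in Atg5 KO cells, by 1.28 and 1.35 on the log2 scale, and Flt1 fell by 3.66 in Fip200 KO and by 2.99 in the Atg7 KO cells. Of the 4 lymphatic genes, Prox1, which defines that lineage, was between 0.0366 and 5.79 RPKM, and the list summed to between 219 and 821 RPKM. Lyve1 rose by 1.25 and 1.11 in the Atg5 KO and Atg7 KO cells and Flt4 by 0.80 in Atg5 KO cells. The macrophage genes Ptprc, Adgre1 and Csf1r stayed below 0.2 RPKM everywhere. Cd68 made up the rest of that list of 4, which summed to 34.5 to 91.8 RPKM in control and 7.14 to 27.1 RPKM in Atg5 KO and Atg7 KO libraries, where Cd68 fell. In Fip200 KO libraries the sum was 263, 19.2 and 16.0 RPKM, above all control libraries in replicate 1 and below them in replicates 2 and 3. The measured epithelial genes Krt8 and Krt18 summed to between 0.392 and 10.6 RPKM, and neither changed. The part of these markers in the results was not tested. Control replicates 2 and 3 held RNA of the 5 measured mesenchymal genes, 70.2 and 17.8 RPKM in sum, mostly Dcn and Pdgfra, against 0.312 RPKM in control replicate 1 and between 0.832 and 2.78 RPKM in the KO libraries. That sum set control replicates 2 and 3 apart from the other 10 libraries, control replicate 1 included. Its gene Col1a2 rose in Atg7 KO cells, from at most 0.0202 RPKM in control to between 0.756 and 1.54 RPKM. The calls that were lost without control replicate 2 or 3 are named with the other single libraries below, and the part of this RNA in the results was not tested.

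Atg5 KO and Atg7 KO cells had lower RNA for most genes of cholesterol synthesis, and among the Fip200 KO libraries replicate 3 stood out in the same way. The test was limma on log2(RPKM + 0.5), and a member is said to have fallen or risen where its p-value adjusted over all genes tested was at most 0.1. By this rule 23 of 35 members (65.7%) fell in Atg5 KO cells, where 18.7% of the 11833 genes tested fell. Another 3 members (8.57%) rose, where 22.9% of all genes rose. In Atg7 KO cells 23 members (65.7%) fell against 13.7% of 11784 genes, and 2 members rose against 11.3%. In Fip200 KO cells 1 member fell, against 1.69% of 11803 genes, and no member rose, against 0.356%. At an unadjusted p under 0.05 the Fip200 counts were 3 lower and 1 higher, together 11.4% of members against 16.1% of all genes. At the adjusted limit voom on the recovered reads also gave 1 lower and 0 higher, against 163 and 25 of 11803 genes. The 3 comparisons share the control libraries, so they are not independent of each other. With a term for the library-name prefix, described below, 1 member fell in Atg5 KO and none in the Atg7 KO cells, against 3.7% and 0.245% of genes.

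The median log2 fold change of the 35 members was −0.26 for Fip200 KO, −0.66 for Atg5 KO and −1.03 for Atg7 KO, beside 0.016, 0.055 and −0.0080 for all genes tested. When a log2 fold change of at least 1 was also asked for, 7 members fell in Atg5 KO cells, against 6.94% of all genes, and 2 rose, against 4.31%. In Atg7 KO cells 17 members (48.6%) passed both limits downwards against 6.81%, and none upwards against 3.29%. The single member in Fip200 KO cells, Mylip, also passed both, against 1.64%.

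**Figure D1:**
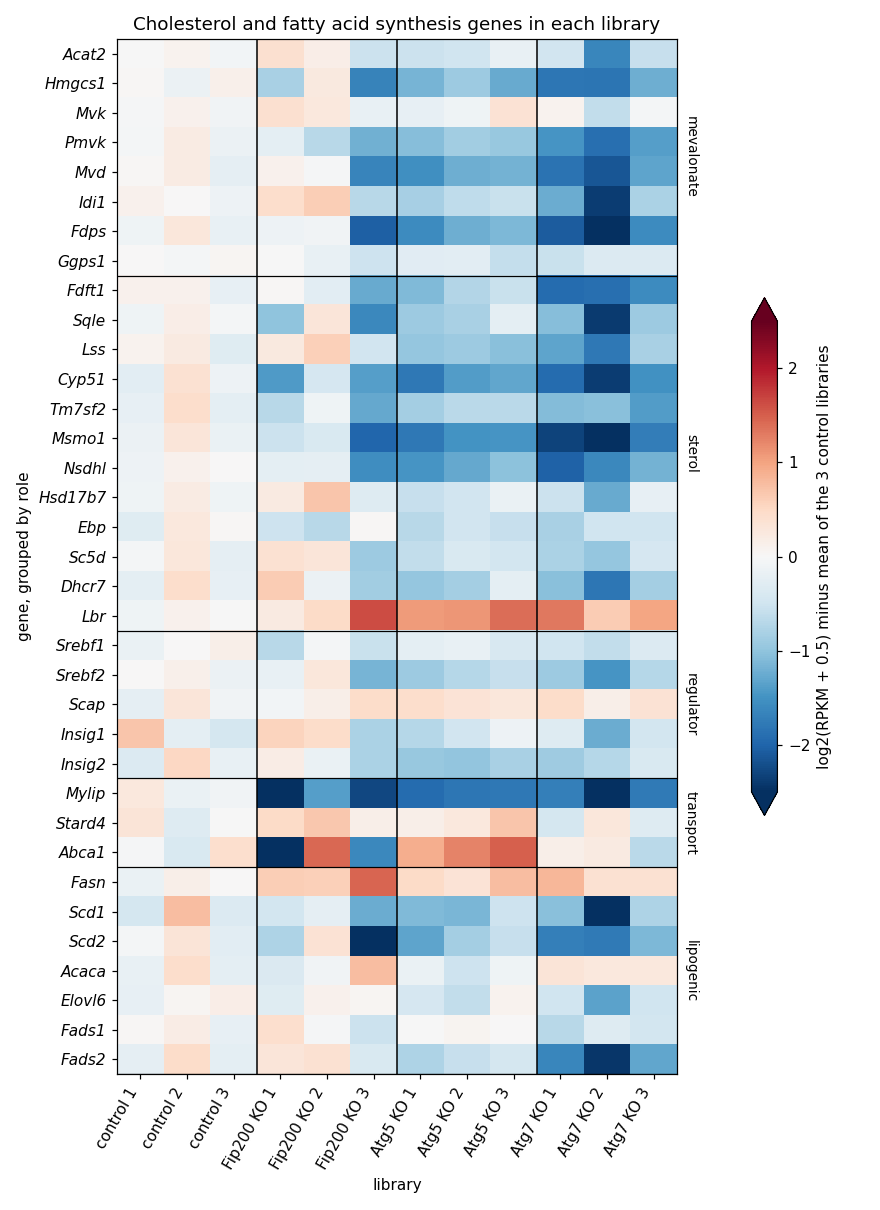
Each row is a gene, grouped by role, and each column a library. Colour is log2(RPKM + 0.5) minus the mean of the 3 control libraries, blue for lower and red for higher, with the scale capped at 2.5 either way. The Atg5 KO and Atg7 KO columns and Fip200 KO replicate 3 are mostly blue in the mevalonate and sterol rows, while Lbr and Fasn are red in the KO columns.

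Libraries were also counted without p-values. In Atg5 KO cells 25 members lay with all 3 libraries below all 3 control libraries, against 22.0% of genes, and 3 lay above, against 28.4%. In Atg7 KO cells 27 lay below (20.4% of genes) and 2 above (19.2%). In Fip200 KO cells 5 lay below (14.3%, against 12.4% of genes), namely Pmvk, Cyp51, Msmo1, Nsdhl and Mylip. Lbr and Fasn lay above (5.71%, against 11.7%). The share of members below was near that of all genes there.

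The sterol pathway held the member with the largest fall in Atg7 KO cells. Msmo1, the methylsterol monooxygenase that starts removal of the C4 methyl groups from the sterol ring, was at 102, 141 and 101 RPKM in control and 78.3, 87.4 and 28.2 RPKM in Fip200 KO cells. Its Atg5 KO libraries were at 32.4, 39.7 and 40.7 RPKM and its Atg7 KO libraries at 22.4, 17.6 and 34.0 RPKM. Every KO library was below every control library. The log2 fold change was −1.59 in Atg5 KO cells (SE 0.17, adjusted p = 0.0037) and −2.23 in the Atg7 KO cells (SE 0.26, adjusted p = 0.0084), which leaves 33.3% and 21.3% of the control level. In Fip200 KO cells it was −0.96, with a 95% interval from −1.97 to 0.04.

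Cyp51, the lanosterol demethylase, was at 16.4, 25.7 and 18.1 RPKM in control, 7.06, 14.5 and 7.28 in the Fip200 KO, 5.33, 7.15 and 7.75 in the Atg5 KO and 4.83, 3.39 and 6.60 RPKM in the Atg7 KO libraries. No KO library reached the lowest control library. Its log2 fold changes were −1.49 (SE 0.21, adjusted p = 0.0061) in the Atg5 KO and −1.93 (SE 0.27, adjusted p = 0.012) in the Atg7 KO cells, and −1.07 in Fip200 KO cells (adjusted p = 0.19). Cyp51 overlaps Akap9 on the opposite strand, and the source does not say whether counting used strand. Akap9 had log2 fold changes of −0.04, −0.02 and −0.07 in the 3 KO.

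Nsdhl, the dehydrogenase that acts after Msmo1, was at 14.6, 17.3 and 16.1 RPKM in control, 13.5, 13.6 and 5.10 in the Fip200 KO, 5.44, 6.28 and 7.65 in the Atg5 KO and 3.58, 4.92 and 6.80 RPKM in the Atg7 KO libraries. The groups did not overlap with control, and Nsdhl fell by 1.26 on the log2 scale in the Atg5 KO (adjusted p = 0.0048) and by 1.60 in the Atg7 KO cells (adjusted p = 0.013). Fdft1, the squalene synthase that commits farnesyl diphosphate to sterols, was at 23.0, 22.9 and 18.2 RPKM in control, 21.6, 17.7 and 8.63 in the Fip200 KO, 9.65, 12.5 and 14.4 in the Atg5 KO and 5.26, 5.41 and 6.81 RPKM in the Atg7 KO libraries. Its log2 fold changes were −0.80 (adjusted p = 0.019) and −1.79 (adjusted p = 0.0072) in the Atg5 KO and Atg7 KO cells. Fdft1 overlaps Ctsb, which encodes the lysosomal protease cathepsin B and lies on the opposite strand. Ctsb was far more abundant, between 392 and 524 RPKM in control, and itself changed by −0.99 and −1.64, so without stranded counting the reads of the pair cannot be told apart.

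Sqle, squalene epoxidase, was at 54.9, 66.7 and 57.5 RPKM in control, 29.5, 73.2 and 19.3 in the Fip200 KO, 31.5, 33.5 and 49.9 in the Atg5 KO and 28, 10.9 and 31.5 RPKM in the Atg7 KO libraries. Fip200 KO replicate 2 lay above all control libraries, and the Fip200 KO values spread more than those of any other group. Sqle fell by 0.66 in the Atg5 KO (adjusted p = 0.041) and by 1.46 in the Atg7 KO cells (adjusted p = 0.047) on the log2 scale. Lss, which closes the epoxide into lanosterol, was at 8.32, 9.25 and 6.27 RPKM in control and 9.33, 12.2 and 5.46 RPKM in Fip200 KO cells. It was at 3.76, 3.97 and 3.52 RPKM in the Atg5 KO and 2.84, 1.91 and 4.28 RPKM in the Atg7 KO cells, below every control library in both. The log2 fold changes were −0.97 (adjusted p = 0.010) and −1.31 (adjusted p = 0.031).

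Dhcr7, a reductase of the last steps, was at 7.77, 12.8 and 7.93 RPKM in control, 14.7, 8.33 and 4.86 in the Fip200 KO, 4.47, 4.93 and 7.69 in the Atg5 KO and 4.22, 2.30 and 4.87 RPKM in the Atg7 KO libraries. Atg5 KO replicate 3 came within 0.1 RPKM of the lowest control library. The log2 fold change was −0.69 in the Atg5 KO (adjusted p = 0.090) and −1.24 in the Atg7 KO cells (adjusted p = 0.043). The other sterol genes that fell were Ebp, by 0.58 and 0.60, and Sc5d, by 0.49 and 0.73 in the Atg5 KO and Atg7 KO cells. Hsd17b7, a keto-reductase, had −0.41 and −0.66 and did not pass in either.

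Tm7sf2 and Lbr went opposite ways, although their proteins are known to catalyse the same sterol reduction. Lbr, the lamin B receptor, also anchors chromatin and lamins at the inner nuclear membrane. Tm7sf2 was at 2.32, 3.92 and 2.22 RPKM in control, 1.5, 2.49 and 0.832 in the Fip200 KO, 1.30, 1.54 and 1.53 in the Atg5 KO and 1.02, 1.07 and 0.729 RPKM in the Atg7 KO libraries. Lbr was at 9.83, 11.5 and 10.5 RPKM in control, 12.4, 14.8 and 33.7 in the Fip200 KO, 22.7, 23.4 and 28.6 in the Atg5 KO and 27.0, 16.7 and 21.3 RPKM in the Atg7 KO libraries. Every KO library was above every control library for Lbr, and Fip200 KO replicate 3 was the highest of all 12. Tm7sf2 fell by 0.73 (adjusted p = 0.050) and 1.18 (adjusted p = 0.030) in the Atg5 KO and Atg7 KO cells, and Lbr rose by 1.19 (SE 0.13, adjusted p = 0.0041) and 0.98 (SE 0.20, adjusted p = 0.027). Tm7sf2 shares exon positions with Vps51 on the same strand, where log2 fold changes were 0.09 and −0.10, so its low count is uncertain.

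In the mevalonate pathway 7 of 8 genes fell in the Atg5 KO and 6 of 8 in the Atg7 KO cells, against 18.7% and 13.7% of all genes, with medians of −0.82 and −1.53. Hmgcs1, the HMG-CoA synthase, was at 64.2, 56.7 and 69.5 RPKM in control and 35.9, 75.1 and 19.5 RPKM in Fip200 KO cells. It was at 27.8, 33.6 and 26.1 RPKM in the Atg5 KO and 17.8, 17.5 and 27.0 RPKM in the Atg7 KO cells. All of the latter 6 libraries were below control, whereas Fip200 KO replicate 2 was above it. The log2 fold changes were −1.11 (SE 0.14, adjusted p = 0.0048) and −1.61 (SE 0.20, adjusted p = 0.0097).

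Fdps, which makes farnesyl diphosphate, was at 104, 136 and 98.1 RPKM in control, 103, 106 and 26.7 in the Fip200 KO, 37.3, 47.4 and 51.3 in the Atg5 KO and 26.1, 16.4 and 37.1 RPKM in the Atg7 KO libraries. Fip200 KO replicates 1 and 2 lay inside the control range and replicate 3 inside the Atg7 KO range. Fdps fell by 1.30 (SE 0.17, adjusted p = 0.0055) and 2.13 (SE 0.30, adjusted p = 0.012), the latter to 22.9% of control. Mvd, the decarboxylase that forms isopentenyl diphosphate, was at 21.1, 23.9 and 17.6 RPKM in control, 22.3, 20.3 and 6.26 in the Fip200 KO, 6.86, 8.59 and 8.88 in the Atg5 KO and 5.37, 4.29 and 7.99 RPKM in the Atg7 KO libraries. The same single Fip200 KO library was low, and the log2 fold changes in the Atg5 KO and Atg7 KO cells were −1.31 (adjusted p = 0.0048) and −1.77 (adjusted p = 0.011).

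Pmvk, phosphomevalonate kinase, was at 13.2, 16.0 and 12.3 RPKM in control, 11.5, 8.33 and 5.67 in the Fip200 KO, 6.35, 7.32 and 6.86 in the Atg5 KO and 4.65, 3.34 and 4.97 RPKM in the Atg7 KO libraries. All 9 KO libraries were below control. Pmvk fell by 0.96 (adjusted p = 0.0066) and 1.58 (adjusted p = 0.0098) in the Atg5 KO and Atg7 KO cells, and had −0.72 in Fip200 KO cells (adjusted p = 0.28). Idi1, the isopentenyl diphosphate isomerase, was at 50.8, 47.3 and 43.3 RPKM in control, 64.2, 71.9 and 28.8 in the Fip200 KO, 26.2, 30.3 and 31.7 in the Atg5 KO and 19.5, 8.62 and 26.8 RPKM in the Atg7 KO libraries. Fip200 KO replicates 1 and 2 were above control and replicate 3 below it. Idi1 fell by 0.67 (adjusted p = 0.010) and 1.48 (adjusted p = 0.045).

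The remaining mevalonate genes changed less. Acat2, the thiolase of the first step, fell by 0.40 and 0.90 in the Atg5 KO and Atg7 KO cells. Mvk, mevalonate kinase, had 0.01 (95% interval −0.41 to 0.43) and −0.20 (−0.71 to 0.32). Ggps1, which draws farnesyl diphosphate away from sterols to make geranylgeranyl diphosphate, fell by 0.38 in Atg5 KO cells and had −0.41 in the Atg7 KO cells (adjusted p = 0.11). Ggps1 overlaps Arid4b on the opposite strand. Arid4b was the more abundant, with a mean of 14.2 RPKM over all libraries, and had −0.45 (adjusted p = 0.045) and −0.43 (adjusted p = 0.15), so the reads of the pair cannot be told apart without stranded counting. The medians of chromosome 13, which holds Ggps1, were −0.22 and −0.23.

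**Figure D2:**
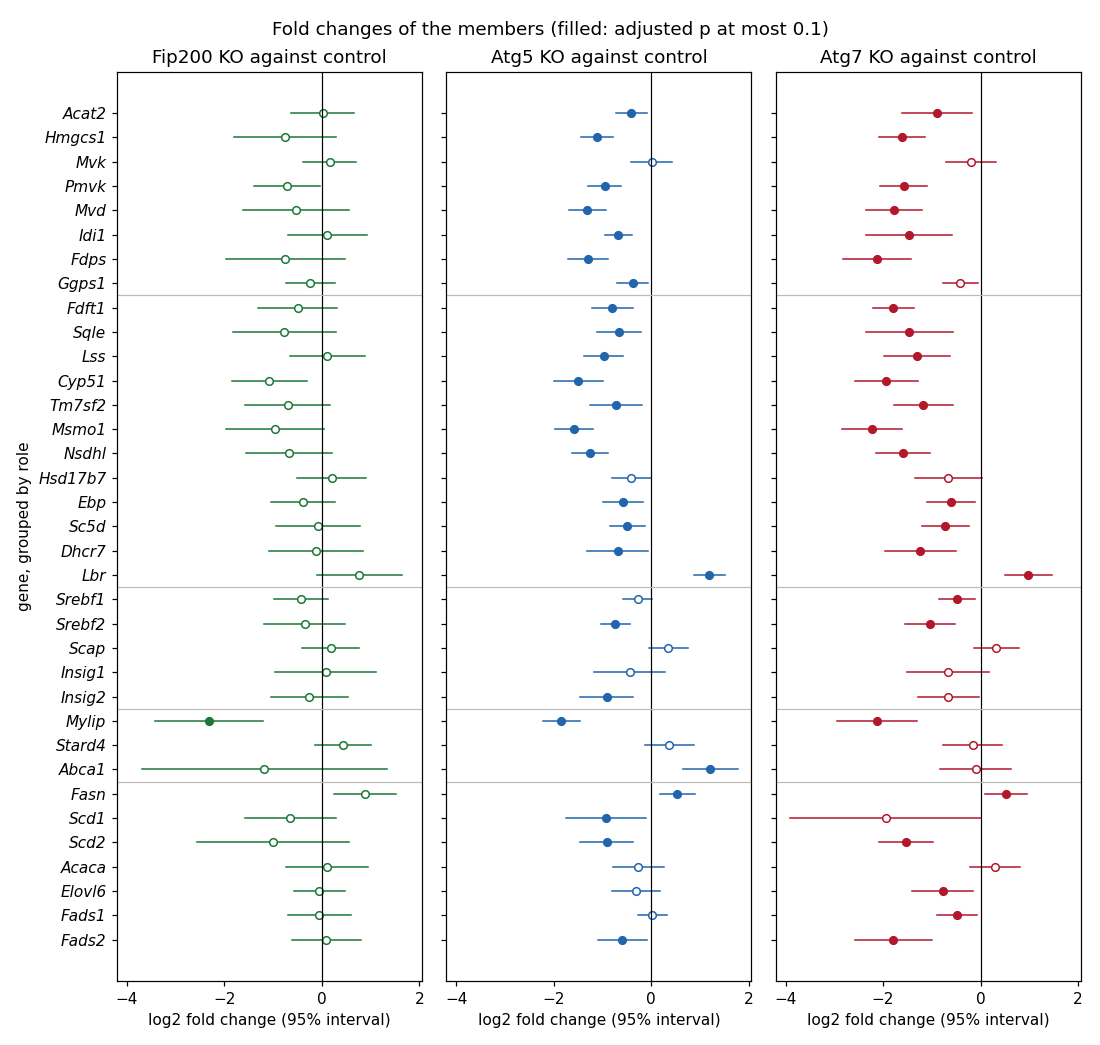
Log2 fold change of each member against control, on the log2(RPKM + 0.5) scale, in a panel for each KO. Lines are 95% intervals, and a filled point has an adjusted p of at most 0.1. In the Fip200 KO panel the intervals are wide and Mylip alone is filled, while in the other panels most points of the mevalonate and sterol groups are filled and left of 0.

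Among the 5 regulators Srebf2 was lower and Scap was not. Srebf2 was at 81.2, 88.6 and 73.3 RPKM in control, 71.3, 98.1 and 36.0 in the Fip200 KO, 42.7, 49.2 and 54.0 in the Atg5 KO and 43.1, 28.7 and 48.9 RPKM in the Atg7 KO libraries. The Atg5 KO and Atg7 KO libraries were all below control, and the Fip200 KO libraries straddled it. Srebf2 fell by 0.73 (SE 0.13, adjusted p = 0.010) and 1.03 (SE 0.22, adjusted p = 0.028), to 60.2% and 48.9% of control. Srebf1 was at 20.4, 22.8 and 25.5 RPKM in control, 13.9, 22.2 and 15.4 in the Fip200 KO, 19.1, 19.9 and 17.2 in the Atg5 KO and 16.1, 14.7 and 17.9 RPKM in the Atg7 KO libraries. It fell by 0.48 in the Atg7 KO cells (adjusted p = 0.083) and had −0.28 in Atg5 KO cells (adjusted p = 0.13). Rai1 lies on the opposite strand over Srebf1 and had 0.33 and 0.31.

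Scap was at 6.46, 9.56 and 7.21 RPKM in control, 7.26, 8.57 and 10.7 in the Fip200 KO, 10.6, 9.76 and 9.37 in the Atg5 KO and 10.7, 8.51 and 10.0 RPKM in the Atg7 KO libraries. The ranges overlapped, and the log2 fold changes of 0.35 and 0.33 did not pass. Insig1, itself a known SREBP target, was at 74.0, 38.3 and 33.4 RPKM in control, 67.6, 63.0 and 26.2 in the Fip200 KO, 27.5, 32.6 and 41.7 in the Atg5 KO and 36.4, 19.1 and 32.9 RPKM in the Atg7 KO libraries. Control replicate 1 was well above the other two, and Insig1 did not pass in any KO (−0.44 in Atg5 KO, −0.67 in Atg7 KO). Insig2 was at 10.8, 19.9 and 12 RPKM in control, 15.6, 12.2 and 7.74 in the Fip200 KO, 6.88, 6.65 and 7.67 in the Atg5 KO and 7.19, 8.17 and 10.4 RPKM in the Atg7 KO libraries. It fell by 0.92 in Atg5 KO cells (adjusted p = 0.028) and had −0.67 in the Atg7 KO cells (adjusted p = 0.13).

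Mylip fell in all 3 KO and was the member with the largest fall in Fip200 KO and Atg5 KO cells. It was at 12.3, 8.92 and 9.47 RPKM in control, 0.575, 3.58 and 1.70 in the Fip200 KO, 2.29, 2.54 and 2.57 in the Atg5 KO and 2.78, 0.919 and 2.63 RPKM in the Atg7 KO libraries. No KO library exceeded 3.58 RPKM and no control library was below 8.92 RPKM. The log2 fold changes were −2.32 (SE 0.47, adjusted p = 0.091), −1.84 (SE 0.16, adjusted p = 0.0031) and −2.12 (SE 0.35, adjusted p = 0.017). The Fip200 KO call was lost when any 1 control library or Fip200 KO replicate 1 was left out.

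Abca1, like Mylip a known LXR target, did not share that pattern. It was at 11.1, 8.66 and 15.4 RPKM in control, 0.649, 31.5 and 3.41 in the Fip200 KO, 21.7, 27.5 and 32.9 in the Atg5 KO and 12.6, 13.4 and 6.96 RPKM in the Atg7 KO libraries. The Atg5 KO libraries were all above control, the Atg7 KO range overlapped it, and the Fip200 KO libraries ranged from far below to above it. Abca1 rose by 1.21 in Atg5 KO cells (SE 0.24, adjusted p = 0.014) and had −0.10 in the Atg7 KO cells (95% interval −0.82 to 0.62). Stard4, a carrier that moves sterol between membranes, had 0.44, 0.37 and −0.16 and did not pass.

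**Figure D3:**
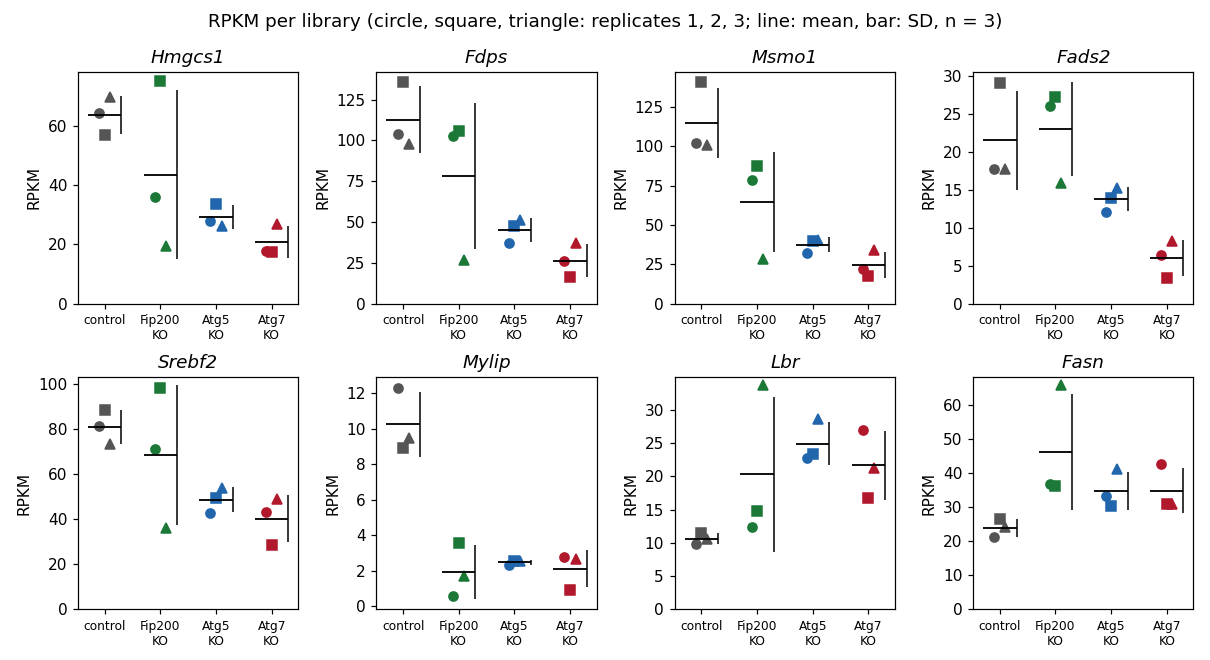
RPKM in every library for 8 members, with a circle, square and triangle for replicates 1, 2 and 3, the mean as a line and the SD (n = 3) as a bar. Hmgcs1, Fdps, Msmo1 and Srebf2 show Fip200 KO replicate 3 near the Atg5 KO and Atg7 KO libraries, Fads2 is lowest in Atg7 KO, Mylip is low in all KO libraries, and Lbr and Fasn are high.

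The 7 fatty acid genes were mixed. Scd2, a stearoyl-CoA desaturase and the most abundant member, was at 188, 245 and 163 RPKM in control, 115, 251 and 32.5 in the Fip200 KO, 77.9, 108 and 131 in the Atg5 KO and 59.2, 57.1 and 90.1 RPKM in the Atg7 KO libraries. The Atg5 KO and Atg7 KO libraries lay below control, and Scd2 fell by 0.92 (adjusted p = 0.027) and 1.53 (adjusted p = 0.014). Fads2, the desaturase that opens polyunsaturated fatty acid synthesis, was at 17.8, 29.0 and 17.7 RPKM in control, 26.0, 27.2 and 15.9 in the Fip200 KO, 12.1, 13.9 and 15.3 in the Atg5 KO and 6.41, 3.45 and 8.25 RPKM in the Atg7 KO libraries. Its Atg7 KO libraries were below all other libraries, and it fell by 0.59 (adjusted p = 0.075) in the Atg5 KO and 1.79 (adjusted p = 0.022) in the Atg7 KO cells.

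Fasn, the fatty acid synthase, rose in Atg5 KO and Atg7 KO cells, whereas Scd2 and Fads2 fell. It was at 21.1, 26.5 and 24.0 RPKM in control, 36.7, 36.2 and 66.0 in the Fip200 KO, 33.3, 30.2 and 41.1 in the Atg5 KO and 42.6, 31.0 and 31.0 RPKM in the Atg7 KO libraries. Each KO library was above each control library. The log2 fold change was 0.53 in the Atg5 KO (adjusted p = 0.040) and 0.53 in the Atg7 KO cells (adjusted p = 0.096), and 0.89 in Fip200 KO cells, which did not pass (adjusted p = 0.19). The Atg5 KO call was lost in 3 and the Atg7 KO call in 11 of 16 alternative fits. Acaca, which makes the malonyl-CoA that Fasn uses, had 0.10, −0.26 and 0.29 and did not pass. Scd1 fell by 0.92 in Atg5 KO cells. In Atg7 KO cells its libraries were at 18.2, 1.88 and 22.2 RPKM and the change of −1.95 did not pass (adjusted p = 0.15). Elovl6, an elongase, fell by 0.78 (adjusted p = 0.094) and Fads1 by 0.49 (adjusted p = 0.098) in the Atg7 KO cells, against −0.31 and 0.02 in Atg5 KO cells. The calls of Elovl6 and Fads1 were lost in 8 and 12 of 16 alternative fits.

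Promoters are shown for the members with the lowest mean fold change that the RefSeq table (GRCm38.p6) covers, Mylip, Msmo1 and Cyp51, and for Srebf2, since these fell in Atg5 KO and Atg7 KO cells. The table holds no entry for Fdps. Hmgcs1 was added after its sequence had been seen, as the only member whose window held the letters of a sterol regulatory element. Each line is the 250 bases before the start of transcription, and capitals mark the motifs TCACNCCAC (sterol regulatory element), CCAAT (the NF-Y box), GGGCGG (the GC box) and CACGTG (the E-box) on either strand, read as the reverse complement where on the other. No match marked here overlaps another. The windows are chr8:64733579-64733828 on the minus strand for Msmo1, chr5:4104698-4104947 on the minus strand for Cyp51, chr13:119690101-119690350 on the plus strand for Hmgcs1, chr15:82147019-82147268 on the plus strand for Srebf2 and chr13:45389492-45389741 on the plus strand for Mylip.
Msmo1: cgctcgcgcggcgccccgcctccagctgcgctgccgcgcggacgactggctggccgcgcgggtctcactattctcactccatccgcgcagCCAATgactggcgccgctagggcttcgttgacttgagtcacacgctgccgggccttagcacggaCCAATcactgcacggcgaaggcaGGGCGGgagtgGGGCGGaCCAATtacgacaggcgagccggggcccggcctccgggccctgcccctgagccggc
Cyp51: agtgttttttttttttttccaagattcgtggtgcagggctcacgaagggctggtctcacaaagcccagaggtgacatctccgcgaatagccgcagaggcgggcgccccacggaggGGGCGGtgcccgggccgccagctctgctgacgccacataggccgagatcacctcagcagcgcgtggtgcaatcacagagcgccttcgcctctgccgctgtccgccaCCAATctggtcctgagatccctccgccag
Hmgcs1: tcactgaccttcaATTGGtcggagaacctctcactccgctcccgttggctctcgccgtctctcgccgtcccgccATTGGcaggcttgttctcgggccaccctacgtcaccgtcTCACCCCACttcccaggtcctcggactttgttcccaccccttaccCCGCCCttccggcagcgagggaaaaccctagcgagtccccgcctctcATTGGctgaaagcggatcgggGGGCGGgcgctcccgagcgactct
Srebf2: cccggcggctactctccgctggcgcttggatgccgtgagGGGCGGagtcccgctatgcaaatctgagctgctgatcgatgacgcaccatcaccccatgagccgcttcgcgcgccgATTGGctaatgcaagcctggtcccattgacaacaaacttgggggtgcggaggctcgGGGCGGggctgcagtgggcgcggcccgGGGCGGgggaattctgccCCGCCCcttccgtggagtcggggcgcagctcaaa
Mylip: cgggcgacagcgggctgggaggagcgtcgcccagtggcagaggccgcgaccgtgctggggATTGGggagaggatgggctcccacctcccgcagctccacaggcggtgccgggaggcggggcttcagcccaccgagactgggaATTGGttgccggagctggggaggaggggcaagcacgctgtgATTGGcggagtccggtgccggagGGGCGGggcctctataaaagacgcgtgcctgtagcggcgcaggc

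The box CCAAT, the site of NF-Y, which is known to act beside SREBP, stood in the window of 22 of the 28 members with an entry, or 78.6%, against 41.1% of the 9227 tested genes with an entry. By window this was 63.9% of the 36 member windows against 35.8% of those of tested genes and 33.8% of the 32851 windows of the whole table. The Msmo1, Hmgcs1 and Mylip windows held 3 each. GGGCGG stood in 72.2% of member windows against 58.7% of those of tested genes. CACGTG stood in 16.7% against 8.54%, and TCACNCCAC in 2.78%, the Hmgcs1 window, against 0.903%. In Hmgcs1 the first base of the sterol regulatory element lay at −137 from the start. Of the genes that rose, Lbr and Fasn also held CCAAT and Abca1 did not. These are matches of letters in short windows and describe no binding.

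Fip200 KO replicate 3 carried most of the difference seen in its group. Its median over the 35 members was −0.79 from the control mean, against −0.07 in replicate 1 and 0.10 in replicate 2. The Atg5 KO libraries had medians of −0.83, −0.63 and −0.52 and the Atg7 KO libraries of −0.90, −1.48 and −0.72. Replicate 3 was the lowest Fip200 KO library for 25 of 35 members (71.4%), against 36.1% of all genes, and it lay below all control libraries for 28 members (80.0%), against 37.7%. For 27 members (77.1%) it lay within the range of the Atg5 KO and Atg7 KO libraries, against 55.7% of all genes, while replicates 1 and 2 did so for 9 (25.7%) and 8 members (22.9%), against 44.1% and 56.7%. Replicate 1 lay below all control libraries for 16 members (45.7%, against 34.0% of all genes) and above them for 11 (31.4%, against 35.9%). Replicate 2 lay below them for 8 members (22.9%, against 35.9%) and above for 14 (40.0%, against 33.5%). Their medians near 0 thus hold members on either side of control. Without replicate 3 the median in Fip200 KO cells was −0.10. That library had the least Rb1cc1 and the least Tsc1 RNA of all libraries, and its Atg7 RNA lay within the Atg7 KO range. Rb1cc1 was also below control in replicate 1. The part of these genes in the result was not tested.

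**Figure D4:**
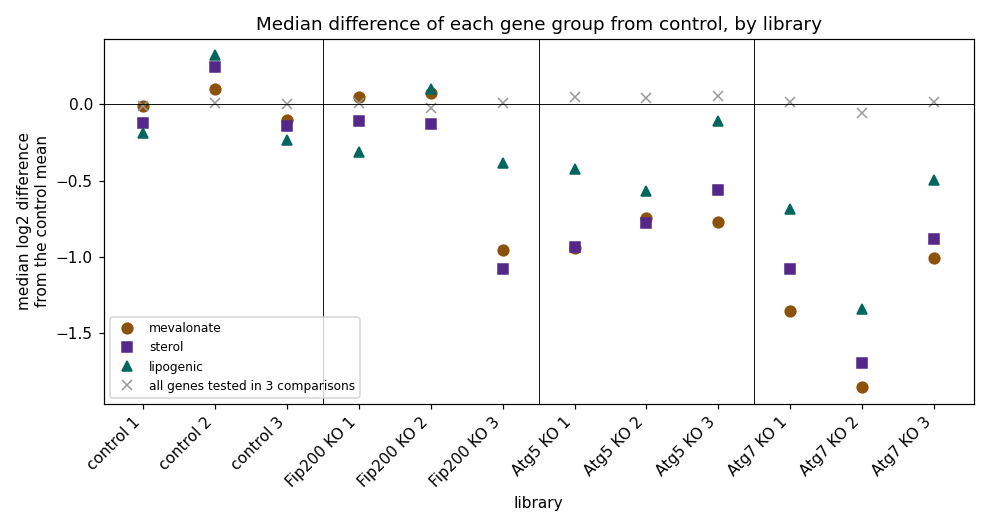
Median log2 difference from the control mean in each library, for the mevalonate (8 genes), sterol (12) and lipogenic (7) members and for all genes tested. Fip200 KO replicates 1 and 2 lie near the control libraries, replicate 3 lies with the Atg5 KO and Atg7 KO libraries, and all genes together stay near 0.

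The KO groups were then compared with each other in a fit of all 12 libraries. No member passed in any of the 3 comparisons, and neither did any other gene, 0.0% of 12233 for each. At an unadjusted p under 0.05 there were 4 members (11.4%) for Atg5 KO against Fip200 KO, 16 (45.7%) for Atg7 KO against Fip200 KO and 4 (11.4%) for Atg7 KO against Atg5 KO, where 7.58%, 7.49% and 4.59% of all genes did so. Voom on the recovered reads passed none. With Fip200 KO replicate 3 left out, a split by direction that was chosen after the values were seen, 6 members were lower in Atg5 KO than in Fip200 KO cells, against 1.66% of genes, and Lbr was higher, against 3.17%. These 6 were Fdps, Lss, Nsdhl, Mvd, Sc5d and Msmo1. For Atg7 KO against Fip200 KO 17 members were then lower (48.6%), against 2.92% of genes, and none was higher, against 3.44%. The library left out here is the one that lay nearest to the Atg5 KO and Atg7 KO libraries in these same genes, so these counts are a description and not a test. Without Fip200 KO replicate 1 neither a member nor any other of 12164 genes passed in either comparison. Without replicate 2 the single member was Abca1, higher in Atg5 KO cells, where 1 of 12186 genes was lower and 3 were higher, and no member passed for Atg7 KO, where 0 genes were lower and 4 higher.

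The prefixes of the library names were taken up next. Within prefix JG, 2 Atg5 KO and 2 control libraries could be set side by side. These controls were replicates 2 and 3, both set apart above by their mesenchymal RNA, and control replicate 1 was not among them. There 28 members lay below both control libraries in both Atg5 KO libraries, against 33.5% of genes, and 5 lay above, against 40.3%. The median was −0.78, with Msmo1 at −1.72, Cyp51 at −1.72, Lbr at 1.04 and Fasn at 0.32. Within prefix FY, 3 Fip200 KO libraries against 1 control library gave a median of −0.21, with 60.0% of members below 0 against 48.4% of all genes. Within prefix Yang, 3 Atg7 KO libraries against 1 Atg5 KO library gave −0.56 beside −0.06 for all genes, with 31 of 35 members (88.6%) below 0 against 56.7%. With the prefix as a term in the 12-library fit the medians were −0.21, −0.78 and −1.26 in cells with KO of Fip200, Atg5 and Atg7, respectively. Only Cyp51 in Atg5 KO cells then passed, 2.86% of members against 3.7% of the 12233 genes, so the members' share was no longer above that of all genes. No member rose there, against 2.73%. For Atg7 KO no member passed, against 0.245% of genes lower and 0.0654% higher, and in Fip200 KO cells none, against 0.368% and 0.0163%. At an unadjusted p under 0.05 there were 1, 9 and 13 lower members. Counted in both directions these were 5.71%, 28.6% and 37.1% of members, against 7.17%, 21.1% and 9.62% of all genes. In that fit Atg7 KO meets control only through the single Yang library of Atg5 KO cells. The 12-library fit without the prefix passed 10 members as lower in Atg5 KO (28.6%, against 9.2% of genes) and 20 in Atg7 KO cells (57.1%, against 11.3%). Lbr alone was higher in each, against 9.83% and 8.76%. In Fip200 KO cells 2 were lower (5.71%, against 5.97%) and 1 higher (2.86%, against 3.47%), both near the shares of all genes.

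Leaving out single libraries changed counts more than directions. The Atg5 KO count of fallen members was 19 without control replicate 2 (15.1% of all genes), 18 without control replicate 3 (12.7%) and 14 without Atg5 KO replicate 1 (11.7%). The Atg7 KO count was 13 without control replicate 2, 14 without control replicate 3 and 15 without Atg7 KO replicate 1, where 6.18%, 3.71% and 6.26% of all genes fell. In Atg5 KO cells the calls of Acat2, Sqle, Dhcr7 and Scd1 were lost without control replicate 2, and those of Acat2, Ggps1, Ebp, Dhcr7 and Scd1 without control replicate 3. Leaving out 1 Atg5 KO library ended these calls in some cases and also those of Tm7sf2, Sc5d, Fads2 and Fasn, so that 16 of 26 calls held without any 1 library, Lbr and Abca1 among them. In Atg7 KO cells Acat2, Idi1, Sqle, Ebp, Sc5d, Dhcr7, Srebf1, Fasn, Elovl6 and Fads1 were lost without control replicate 2 and also without control replicate 3, Lss was lost without the former and Lbr without the latter. The 13 of 25 calls that held without any 1 library were Hmgcs1, Pmvk, Mvd, Fdps, Fdft1, Cyp51, Tm7sf2, Msmo1, Nsdhl, Srebf2, Mylip, Scd2 and Fads2. Control replicate 2 was the highest control library for 25 of 35 members (71.4%), against 40.1% of all genes. Atg7 KO replicate 2 was the lowest of its group for 24 members (68.6%), against 46.9%.

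Genes outside the 35 were counted from 3 lists. Of 16 other SREBP targets 15 could be tested, Pnpla3 being too low, and 7 fell in Atg5 KO (46.7%), 6 in Atg7 KO (40.0%) and none in Fip200 KO cells, with none rising. The shares of all genes that fell were the 18.7%, 13.7% and 1.69% given above. Those that rose were 22.9%, 11.3% and 0.356%, in the same order. Aldoc, an aldolase, had log2 fold changes of −1.99 and −2.23 in the Atg5 KO and Atg7 KO cells, and Acss2, which makes acetyl-CoA from acetate, −1.83 and −2.10. Lpin1, a phosphatidate phosphatase, had −1.29 and −1.79, Mid1ip1, which activates acetyl-CoA carboxylase, −1.42 and −1.38, and Acsl3, an acyl-CoA synthetase, −1.01 and −1.41. Pcyt2, an enzyme of phosphatidylethanolamine synthesis, had −0.62 and −1.15.

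Of 16 genes of sterol sensing and LXR signalling 1 fell in Fip200 KO (6.25%, against 1.69% of all genes), 4 in the Atg5 KO (25.0%, against 18.7%) and 5 in the Atg7 KO cells (31.2%, against 13.7%). None rose, against 0.356%, 22.9% and 11.3% of all genes in the same order. Mbtps1 and Mbtps2, the proteases that cleave SREBP in the Golgi, had −0.84 and −1.03 for Atg5 KO and −0.72 and −0.83 for Atg7 KO. Npc2, the lysosomal sterol carrier, had −1.32, −0.93 and −1.29 in the 3 KO. The LXR gene Nr1h3 had −0.78 in the Atg7 KO cells.

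Of 18 fatty acid oxidation genes 1 fell and 4 rose in Atg5 KO cells (5.56% and 22.2%, against 18.7% and 22.9% of all genes), and 2 fell and 2 rose in the Atg7 KO cells (11.1% each, against 13.7% and 11.3%). None changed in Fip200 KO cells, where 1.69% of all genes fell and 0.356% rose. The shares that rose were near those of all genes. Cpt1a, which admits fatty acids to mitochondria, was at 2.83, 4.78 and 4.35 RPKM in control, 6.25, 5.06 and 10.5 in the Atg5 KO and 18.3, 18.1 and 9.40 RPKM in the Atg7 KO cells. It rose by 0.76 and 1.78 on the log2 scale. The list median was −0.07 in the Atg5 KO and 0.05 in the Atg7 KO cells, beside 0.055 and −0.0080 for all genes. In Fip200 KO cells it was −0.27, beside 0.016 for all genes and −0.26 for the 35 members.

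Fabp4, a fatty acid binding protein of capillary endothelium and adipocytes, was at 3250, 2500 and 2770 RPKM in control, 2730, 1170 and 338 in the Fip200 KO, 732, 960 and 442 in the Atg5 KO and 338, 941 and 793 RPKM in the Atg7 KO libraries. It was the single measured gene of the adipocyte marker list and fell in the Atg5 KO and Atg7 KO cells. The other genes of that list were not analysed here, so the part of adipocyte-like RNA in the results was not tested.

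The members lie on 16 chromosomes, whose medians ranged from −0.37 to 0.40 in the 3 comparisons. These medians were taken over the tested genes above a set RPKM in every library, not over all tested genes. Msmo1 and Mvd lie on chromosome 8, where the medians were −0.34, −0.34 and −0.36, and Nsdhl and Ebp on chromosome X, with −0.33, −0.37 and −0.26. Their own changes in the Atg5 KO and Atg7 KO cells were larger than these medians. For Ebp, with −0.58 and −0.60, the margin was less than 0.4.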

How the data were processed

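RNA of 12 libraries (3 each of control 562 cells and of cells with KO of Fip200, Atg5 or Atg7) was extracted with a column kit and made into directional libraries. The authors trimmed the reads, aligned them with TopHat2, counted them on known transcripts and compared groups with edgeR. Versions, genome build, annotation and the strand setting of the counting are not given in the sources used here. The authors deposited 3 tables of the same 14851 genes, each with the RPKM of the control libraries and of 1 KO group. The tables also hold the authors' own means, fold changes, p-values and adjusted p-values, which were not used.

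The deposited RPKM name no unit, but once divided by a factor for each library and gene they came to whole reads, within 0.01 of a read, for all 14831 genes with reads. Totals of 17264989 to 23627944 reads per library were recovered in this way. Replicates of a group differed by 8.69 to 317 times the counting noise (chi-square per degree of freedom), so none was a copy of another and no interval of counting error is given.

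The test was limma 3.58.1 (R 4.3.3) on log2(RPKM + 0.5) with a trend in the prior variance, over genes with at least 0.5 RPKM in at least 3 of the libraries compared, and Benjamini-Hochberg adjustment over all genes tested. Each KO was fitted with control (6 libraries), and KO groups with each other in 1 fit of all 12. The same fit was also run on 1 simulated comparison with known changes. Fold changes are on the log2(RPKM + 0.5) scale, which understates those of low genes. Percentages of the control level are on the same scale. Alternatives were the pseudocount, the filter, the scaling, the trend, the 12-library fit, the replicate number as a block, a term for the name prefix of the libraries, each library left out and, added after the data were seen, voom on the recovered reads. Same-numbered libraries of KO and control correlated between −0.22 and 0.065 in their deviations from the group means, so the numbers were not taken as pairs.

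Named with values were the members that passed both limits (adjusted p 0.1, log2 fold change 1) in any KO, the 5 regulators, and up to 6 genes of each other list. The values of 1 gene of these lists are not reported here. Values of Fasn, Stard4, Acaca and the remaining members were added to account for all 35. The members and lists were chosen with earlier results of these data known. Promoters, with 28 of 35 members matched by symbol, came from RefSeq (GRCm38.p6), which may differ from the build of the tables and was used for sequence alone. Figures were drawn with matplotlib 3.10.9.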

Additional observations from a re-analysis of the deposited data

How the results depend on the processing

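Every passing member kept the sign of its fold change in every alternative, 1 of 1 in Fip200 KO, 26 of 26 for Atg5 KO and 25 of 25 for Atg7 KO. The counts moved more. In Fip200 KO cells the count of fallen members was 1, and 0 with a pseudocount of 0.1, with no filter on low values, with the replicate block and with a term for the name prefix. It was 2 in the 12-library fit (5.71%, against 5.97% of all genes), where 1 member also rose (2.86%, against 3.47%), and between 0 and 1 with single libraries left out. In Atg5 KO cells 23 fell, 10 in the 12-library fit (28.6%, against 9.2% of all genes), 1 with the prefix (2.86%, against 3.7%) and 14 to 23 with single libraries left out. There 3 rose, 1 in the 12-library fit, 0 with the prefix and 2 to 4 with single libraries left out. In Atg7 KO cells 23 fell, 0 with the prefix, where 0.245% of all genes fell, and 13 to 23 with single libraries left out. There 2 rose, 1 with no filter, with no trend, in the 12-library fit, with the replicate block and with voom, 0 with the prefix, and 0 to 2 with single libraries left out. With the replicate block, 19 members fell for Atg5 KO and 16 for Atg7 KO, against 15.4% and 9.4% of all genes, and the block is not read as pairing because same-numbered libraries did not deviate together. Between Atg5 KO and Fip200 KO cells 0 to 7 members passed with single libraries left out (7 without Fip200 KO replicate 3, 1 without replicate 2), and for Atg7 KO against Fip200 KO 0 to 17 (17 without replicate 3). The cause of these changes was not tested. Precision is limited by 3 libraries a group, and the lowest count of a member was 22 reads.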
